A study of Arabidopsis thaliana with 6 samples.

Results

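This account follows 9 Arabidopsis genes for 3 families of secreted signalling peptides and the receptors that read them, out of 32678 genes in the deposited count table. They were taken by locus identifier as PREPIP1, PREPIP2 and PREPIP3, the precursors of PAMP-INDUCED SECRETED PEPTIDES, their receptor kinase RLK7, the RALF precursors RALF23 and RALF33, the receptor kinase FERONIA (FER) with its partner LLG1, and the phytosulfokine receptor PSKR1. Polyadenylated RNA was sequenced from leaves of wild-type Col-0 and of Col-0 carrying 35S:RPS4-HS, here 35S:RPS4, with 3 libraries per genotype. All plants were 3.5 weeks old, had grown at 28 °C and were sampled 2 h after a move to 19 °C, so the temperature change was common to both groups. RPS4 is an intracellular immune receptor whose signalling is held back by warm growth, and the 35S promoter drives the transgene in nearly all tissues. The labels name 1 transgene and give neither the number of independent lines nor the plants behind each replicate. The p-values below therefore measure the spread between these libraries only.

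Of the 9 genes, 8 had enough reads to be tested, and 5 were higher in 35S:RPS4, namely PREPIP2, PREPIP3, RLK7, RALF33 and PSKR1. None was lower by the same rule, which asked for a Benjamini-Hochberg false discovery rate (FDR) under 0.01 in edgeR's quasi-likelihood test and a log2 fold change (log2FC, 35S:RPS4 minus Col-0) over 1 in size. Among all 18382 genes tested, 6.46% passed as higher and 1.37% as lower, 7.83% in all. FER, LLG1 and RALF23 did not pass. PREPIP2 and PREPIP3 passed the filter on low counts through 35S:RPS4 alone, so they could only be called higher, and PREPIP1 failed it. The count of 0 lower also held with DESeq2 and voom, and RALF23 alone was lower at an unadjusted p below 0.05 in edgeR. The median log2FC was 1.21 over the 8 tested genes and 0.0055 over all genes tested. The 9 genes were chosen with earlier results of these data known, so these shares and medians describe them and test nothing about the set.

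PIP precursors carry a signal peptide, are cut outside the cell, and release a short C-terminal peptide built around a serine, glycine, proline and serine core. PIP1 and PIP2 are sensed by RLK7, a leucine-rich repeat receptor kinase, and are known to strengthen immune responses. RALF peptides are cysteine-rich, bind FER together with the GPI-anchored protein LLG1, and shift growth, cell wall sensing and immunity. RALF23 and RALF33 are known to dampen the assembly of immune receptor complexes through FER. Phytosulfokine is a short sulfated peptide that promotes growth, and its receptor PSKR1 is known in Arabidopsis to restrain responses to bacterial patterns.

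The coding stretches that hold the PIP core are shown because the 3 precursors share it and yet differed widely in level. They were read from the RefSeq TAIR10.1 genome, 5′ to 3′ on the coding strand, and the capitals mark the codons for serine, glycine, proline and serine. The first 3 lines end at the last codon before the stop, and the other 2 are the earlier copies of the core that PREPIP2 and PREPIP3 hold.
PREPIP1, chr4:14066257-14066298, plus strand: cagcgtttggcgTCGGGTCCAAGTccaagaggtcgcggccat
PREPIP2, chr4:17549932-17549973, minus strand: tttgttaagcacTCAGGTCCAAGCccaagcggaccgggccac
PREPIP3, chr2:9903527-9903568, plus strand: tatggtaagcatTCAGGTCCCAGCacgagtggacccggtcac
PREPIP2, chr4:17549986-17550042, minus strand: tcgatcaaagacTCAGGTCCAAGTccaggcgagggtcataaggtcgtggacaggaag
PREPIP3, chr2:9903455-9903511, plus strand: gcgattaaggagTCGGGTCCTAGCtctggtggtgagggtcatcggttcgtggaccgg
The C-terminal stretches of PREPIP2 and PREPIP3 matched at 33 of 42 bases. PREPIP1 matched PREPIP2 at 25 and PREPIP3 at 24 of the 42. The earlier copies matched at 27 of 57 bases. PREPIP1, the precursor with the fewest reads, held the core 1 time. The encoded precursors had 72, 84 and 86 residues for PREPIP1, PREPIP2 and PREPIP3, and the annotation lists each as an uncharacterized protein.

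The corresponding stretches of RALF23 and RALF33 are shown because these related ligands differed between the genotypes in opposite directions. The capitals mark codons for arginine, arginine, isoleucine and leucine, the kind of site at which the protease SBT6.1 is known to cut RALF23.
RALF23, chr3:5644988-5645044, plus strand: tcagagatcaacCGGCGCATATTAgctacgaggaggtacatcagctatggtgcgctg
RALF33, chr4:8985092-8985148, plus strand: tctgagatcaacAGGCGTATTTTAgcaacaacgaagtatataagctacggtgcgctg
The 2 stretches matched at 46 of 57 bases. RALF23 encoded 138 residues and RALF33 116 residues, with the site starting at codon 85 and codon 64.

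Gene counts ran from 28659022 to 31007551 per library, and 20736 to 21662 genes had a read. RPS4 itself was at 27.1 ± 5.11 CPM (read counts scaled to a common library size with TMM factors, SD, n = 3) in Col-0 and at 757 ± 151 in 35S:RPS4, a log2FC of 4.81 (SE 0.22, FDR 3.25e-05). The 4 mesophyll markers were high, as the leaf label states, and summed to 44932 to 47402 CPM in Col-0 and 45307 to 51958 in 35S:RPS4. The 2 root markers summed to 0.124 to 1.30 CPM in Col-0 and 0.0731 to 1.29 in 35S:RPS4, all of it from PYK10, since COBL9 was at 0 in every library. The 2 pollen markers summed to at most 0.0678 CPM. The 3 guard cell markers summed to 37.8 to 38.2 CPM in Col-0 and 47.5 to 48.3 in 35S:RPS4, while the 2 phloem markers overlapped at 262 to 340 and 284 to 290 CPM. Of the guard cell markers, KAT1 was at 17.9 CPM in Col-0 and 24.5 in 35S:RPS4 (edgeR FDR 0.0204). MYB60 was at 8.78 and 10.6 CPM (FDR 0.174) and FMA at 11.3 and 12.7 CPM (FDR 0.348). The part of the guard cell difference in the results below was not tested. In bulk leaf RNA, more cells of a type and more RNA per cell cannot be told apart.

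The 35S:RPS4 library numbered 1 stood below the other 2 libraries of its group. Over the 863 genes called higher with at least 10 CPM in 35S:RPS4, its level was a median of 0.635 times the mean of replicates 2 and 3. Among the genes described here this ratio was 0.543 for PREPIP2, 0.430 for PREPIP3, 0.660 for RLK7, 0.692 for RALF33 and 0.699 for PSKR1. It was 0.909 for FER, 0.849 for LLG1 and 1.01 for RALF23. Col-0 replicate 1 stood apart from its group as well, with a chi-square per gene of 31.8 and 24.5 against replicates 2 and 3, which differed by 8.06. The same ratio in Col-0 was 0.774 for PSKR1, 0.919 for RLK7 and 1.16 for RALF33. Without both libraries numbered 1, an alternative chosen after seeing the data, the same count of 5 genes passed as higher.

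**Figure D1:**
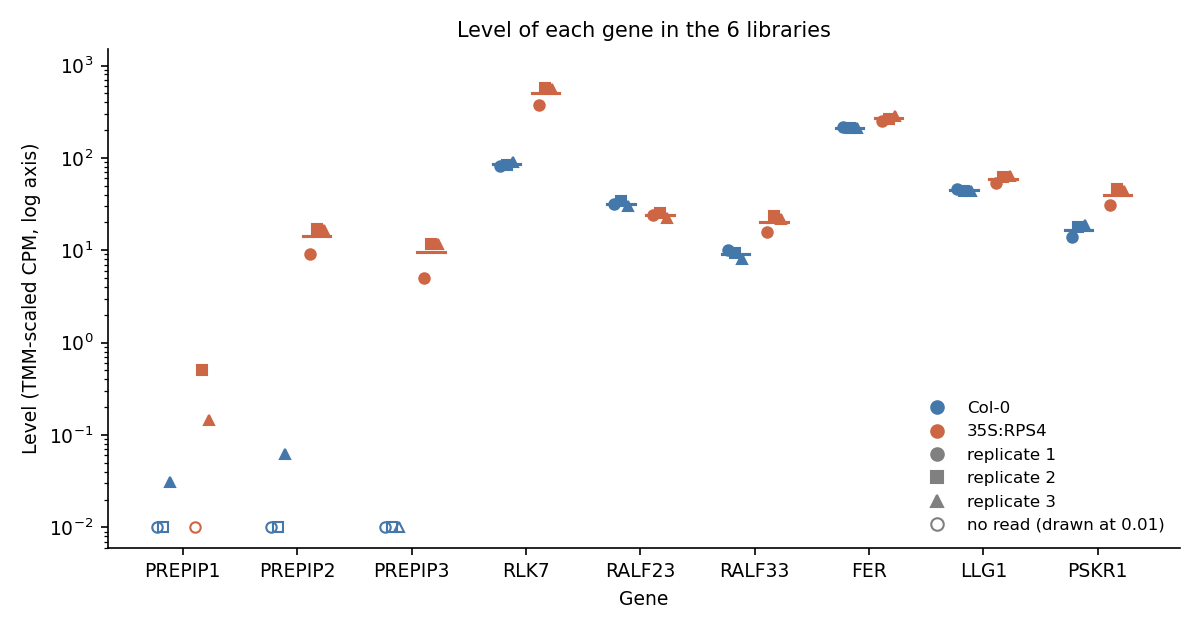
Level of the 9 genes in each library in TMM-scaled CPM on a log axis, blue for Col-0 and red for 35S:RPS4, with the marker shape giving the replicate and a bar the mean where no library was at 0; open markers are libraries without a read, drawn at 0.01. The PREPIP2 and PREPIP3 libraries of 35S:RPS4 sit between 5.03 and 16.9 CPM, against at most 0.062 CPM in Col-0, and RALF23 is the gene whose 35S:RPS4 libraries all lie below Col-0.

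The PIP precursors PREPIP2 and PREPIP3 had almost no reads in Col-0 and clear expression in 35S:RPS4. PREPIP2 (AT4G37290, TAIR10.1 chromosome 4, 17549607 to 17550257, minus strand) had 0, 0 and 2 reads in Col-0 replicates 1 to 3 and 270, 499 and 450 reads in 35S:RPS4. In CPM its mean level was 0.0206 ± 0.0357 for Col-0 and 14.1 ± 4.41 for 35S:RPS4 (SD, n = 3). The groups lay far apart, with the lowest 35S:RPS4 library at 9.06 CPM. The depth-scaled ratio of 1219 to 2 reads was 658.5, with a 95% counting interval of 181.9 to 5443 that covers counting error only. Both Col-0 reads came from replicate 3, and without that library PREPIP2 was at least 287.1-fold higher against the floor of 3 reads over the group. The edgeR fit gave an FDR of 0.000101 for PREPIP2, which like PREPIP3 entered the test through 35S:RPS4 alone.

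PREPIP3 (AT2G23270, chromosome 2, 9903215 to 9903845, plus strand) was without reads in all 3 Col-0 libraries and had 150, 347 and 318 reads in 35S:RPS4. Its level in 35S:RPS4 was 9.48 ± 3.85 CPM (SD, n = 3). Against a floor of 3 reads over the Col-0 group this was at least 293.5-fold higher, with an edgeR FDR of 0.00184. Leaving out 35S:RPS4 replicate 2 moved that FDR to 0.0105, just over the threshold. PREPIP2 exceeded PREPIP3 in each 35S:RPS4 library, by 1.80, 1.44 and 1.42 times in reads.

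PREPIP1 (AT4G28460, chromosome 4, 14065992 to 14066661, plus strand) stayed near the limit of detection. It had 0, 0 and 1 reads in Col-0 and 0, 15 and 4 reads in 35S:RPS4, and it failed the filter on low counts. The groups overlapped, since 35S:RPS4 replicate 1 had no read. The depth-scaled ratio of 19 to 1 reads was 20.5, with a counting interval of 3.26 to 853. With the filter removed the edgeR fit gave an FDR of 0.156, and DESeq2 gave 0.139.

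None of the tested neighbours of the PIP genes was called higher. The library kit does not mark strand, so reads of overlapping genes on opposite strands cannot be told apart. None of these neighbours overlapped a PIP gene in the annotation, with gaps of 47 to 3052 bases. AT4G37280 lies 47 bases from PREPIP2 on the same strand, and its log2FC was 0.05 (edgeR FDR 0.799). The gene on the other side of PREPIP2, AT4G37295, was not tested. It had 0, 2 and 1 reads in Col-0 and 2, 3 and 1 reads in 35S:RPS4. Next to PREPIP3, MYB70 lies 660 bases away and had a log2FC of -0.64 (FDR 0.0277, not called). UGT84B1, on the other side of PREPIP3, was not tested, with 0, 0 and 0 reads in Col-0 and 0, 0 and 1 in 35S:RPS4. RPN1B lies 69 bases from PREPIP1 and had a log2FC of 0.04.

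The receptor gene for these peptides was higher in 35S:RPS4, as were PREPIP2 and PREPIP3. RLK7 (AT1G09970, LRR XI-23 in the annotation, chromosome 1, 3252098 to 3255782, plus strand) was at 80.7, 84.4 and 91.2 CPM in Col-0 and at 375, 573 and 563 CPM in 35S:RPS4. The lowest 35S:RPS4 library was thus above every Col-0 library. The means were 85.4 ± 5.31 and 504 ± 112 CPM, a 5.90-fold difference with a log2FC of 2.56 (SE 0.17, 95% interval 2.16 to 2.96, edgeR FDR 0.000105). Unlike its ligand genes, RLK7 was already well expressed in Col-0, with 2503 to 2952 reads per library. The call held in every alternative that was run.

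The RALF precursors RALF23 and RALF33 differed in opposite directions, and of these only RALF33, higher in 35S:RPS4, passed. RALF33 (AT4G15800, RALFL33 in the annotation, chromosome 4, 8984787 to 8985995, plus strand) was at 10.1, 9.44 and 7.97 CPM in Col-0 and at 15.7, 23.4 and 22.0 CPM in 35S:RPS4. The groups did not overlap. The means of 9.16 ± 1.08 and 20.4 ± 4.11 CPM differed 2.23-fold, with a log2FC of 1.16 (SE 0.17, 95% interval 0.76 to 1.55, edgeR FDR 0.00286). This log2FC lay close to the threshold of 1 and fell to 0.97 with upper-quartile scaling and 0.99 with plain library sizes.

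RALF23 (AT3G16570, chromosome 3, 5644593 to 5646557, plus strand) was at 31.7, 34.2 and 30.1 CPM in Col-0 and at 24.2, 25.3 and 22.4 CPM in 35S:RPS4. Every 35S:RPS4 library was below every Col-0 library. The means were 32.0 ± 2.08 and 24.0 ± 1.48 CPM, with a log2FC of -0.42 (SE 0.09, 95% interval -0.62 to -0.22, edgeR FDR 0.0134), which did not pass the threshold. Across all genes tested, 16.3% had 35S:RPS4 libraries wholly below Col-0 and 17.9% wholly above. Of the 8 tested genes described here, RALF23 was the 1 below and the other 7 were above.

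The FER and LLG1 transcripts differed little. FER (AT3G51550, chromosome 3, 19117584 to 19120949, minus strand), a receptor kinase of the CrRLK1L family, was at 218, 209 and 213 CPM in Col-0 and at 251, 267 and 285 CPM in 35S:RPS4. The groups lay apart but close together, at 213 ± 4.44 and 267 ± 17.1 CPM. The log2FC was 0.33 (SE 0.07, 95% interval 0.16 to 0.50, edgeR FDR 0.0194), so FER was not called, and the interval stopped short of a log2FC of 1.

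LLG1 (AT5G56170, chromosome 5, 22735899 to 22737339, plus strand) was at 46.2, 43.7 and 43.9 CPM in Col-0 and at 53.3, 61.6 and 64.0 CPM in 35S:RPS4. The means of 44.6 ± 1.37 and 59.6 ± 5.62 CPM gave a log2FC of 0.42 (SE 0.09, 95% interval 0.22 to 0.62, edgeR FDR 0.0138), again not called. These small differences depended on the scaling. With plain library sizes, where the median log2FC of all genes tested was -0.16, FER was at 0.16 (FDR 0.147) and LLG1 at 0.25 (FDR 0.0606), still positive, and RALF23 was at -0.58 (FDR 0.00297).

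The phytosulfokine receptor gene PSKR1 was higher in 35S:RPS4. PSKR1 (AT2G02220, chromosome 2, 583797 to 587401, minus strand) was at 14.0, 17.7 and 18.6 CPM in Col-0 and at 31.1, 45.5 and 43.5 CPM in 35S:RPS4. The groups were well separated. The means of 16.8 ± 2.41 and 40.0 ± 7.79 CPM differed 2.39-fold, with a log2FC of 1.25 (SE 0.17, 95% interval 0.85 to 1.66, edgeR FDR 0.00226).

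The calls of RALF33 and PSKR1 depended on which library was left out. Leaving out replicate 2 or 3 of either genotype, 1 library at a time, moved the FDR of both genes above 0.01, at log2FC values of 1.04 to 1.18 for RALF33 and 1.15 to 1.33 for PSKR1. Both calls were kept without replicate 1 of Col-0 (FDR 0.00618 and 0.0053), without replicate 1 of 35S:RPS4 (FDR 0.000153 and 0.000173) and without both. The count of called genes was then 2 without 35S:RPS4 replicate 2, where PREPIP3 was lost as well. It was 3 for each of the other removals, namely Col-0 replicate 2, replicate 3 of Col-0, and replicate 3 of 35S:RPS4. At an FDR below 0.05 with no fold minimum, 7 of the 8 tested genes were higher and 1 was lower, beside 10.5% and 6.26% of all genes tested. That looser rule added FER, LLG1 and RALF23, and each missed 0.05 on some removals of 1 library. Over these removals the FDR ran from 0.0147 to 0.0865 for FER, 0.00305 to 0.0656 for LLG1 and 0.0228 to 0.0618 for RALF23.

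Ratios between genes within a library do not depend on library scaling. In reads, RALF33 to RALF23 was 0.317, 0.276 and 0.265 in Col-0 and 0.650, 0.925 and 0.984 in 35S:RPS4. RALF33 thus drew close to RALF23 in replicates 2 and 3 of 35S:RPS4, a difference of 1.56 in the log2 of the ratio. RLK7 to FER was 0.371, 0.404 and 0.428 in Col-0 and 1.49, 2.15 and 1.98 in 35S:RPS4. RLK7 thus had fewer reads than FER in Col-0 and more in 35S:RPS4. PSKR1 to FER was 0.0645, 0.0846 and 0.0872 in Col-0 and 0.124, 0.171 and 0.153 in 35S:RPS4. FER to LLG1 hardly moved, at 4.72, 4.78 and 4.85 in Col-0 and 4.70, 4.33 and 4.45 in 35S:RPS4. For each of the 4 ratios the groups did not overlap, and the exact permutation test (two-sided) gave p = 0.1, the smallest that the 20 splits of 3 against 3 libraries allow, before any adjustment over the 4.

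**Figure D2:**
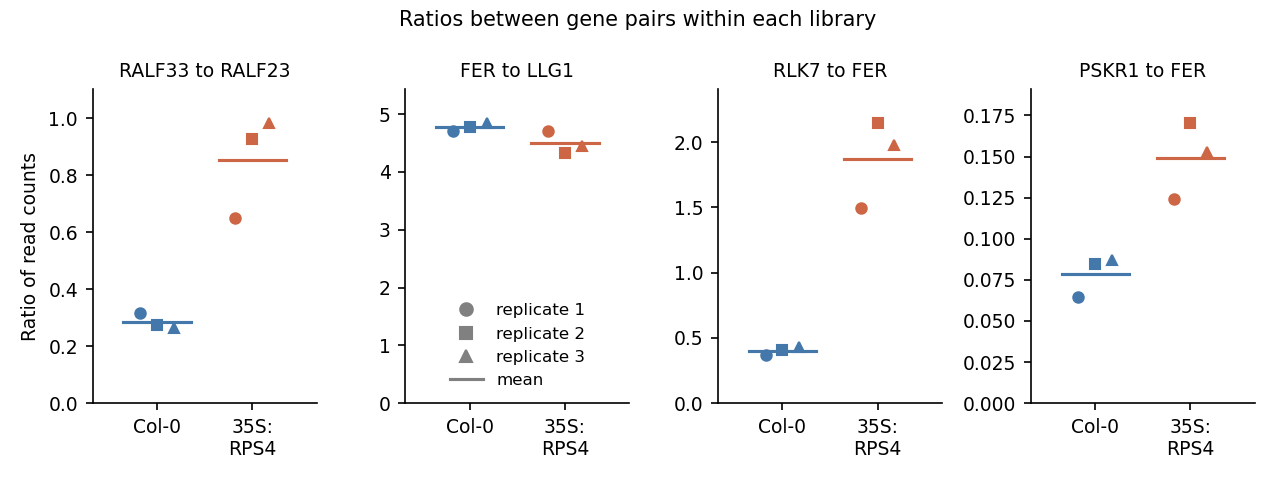
Ratio of read counts between pairs of genes within each library, with 1 panel per ratio and its own axis from 0, blue for Col-0 and red for 35S:RPS4, marker shape for the replicate and a bar for the mean. The RLK7 to FER ratio is at most 0.428 in Col-0 and at least 1.49 in 35S:RPS4, while FER to LLG1 stays between 4.33 and 4.85.

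Levels of different genes were compared per kilobase of exon (RPKM from the TMM-scaled counts). In Col-0 the order was FER at 66.8, LLG1 at 48.9, RLK7 at 23.7, RALF23 at 16.3, RALF33 at 7.58 and PSKR1 at 4.65, with PREPIP2 at 0.0316, PREPIP1 at 0.0154 and PREPIP3 at 0. The libraries of neighbouring genes in this order did not overlap from FER down to PSKR1, while the 3 PIP precursors overlapped. In 35S:RPS4 the order was RLK7 at 140, FER at 83.8, LLG1 at 65.5, PREPIP2 at 21.7, RALF33 at 16.9, PREPIP3 at 15.0, RALF23 at 12.2, PSKR1 at 11.1 and PREPIP1 at 0.326. RLK7, FER and LLG1 stayed apart there, whereas the libraries of PREPIP2, RALF33, PREPIP3, RALF23 and PSKR1 each overlapped with those of the next gene, and PREPIP1 lay below them all.

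RALF23 has 3 annotated transcripts, and its place in this order depends on the length used. Over its 1965 exon bases it was at 16.3 in Col-0, and over its shortest transcript of 663 bases at 48.3 in Col-0 and 36.2 in 35S:RPS4.

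The other genes of the RALF family showed no called difference. Of 25 other RALF precursors, 16 had no read in any library and 6 were tested, with none higher, none lower and a median log2FC of -0.16. At an unadjusted p below 0.05 in edgeR, 1 was higher (RALF22) and 1 lower (RALF32), and DESeq2 and voom also called 0. RALF34 had the highest Col-0 level of these, at 37.2 CPM against 29.6 in 35S:RPS4 (log2FC -0.33, edgeR FDR 0.284). RALF22, at 20.1 CPM in Col-0 and 24.9 in 35S:RPS4, had a log2FC of 0.31 (FDR 0.112). RALF32 was low, at 1.30 to 1.93 CPM in Col-0 and 0.585 to 1.11 CPM in 35S:RPS4. Its groups did not overlap, and its log2FC of -0.76 (FDR 0.155) was not called.

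**Figure D3:**
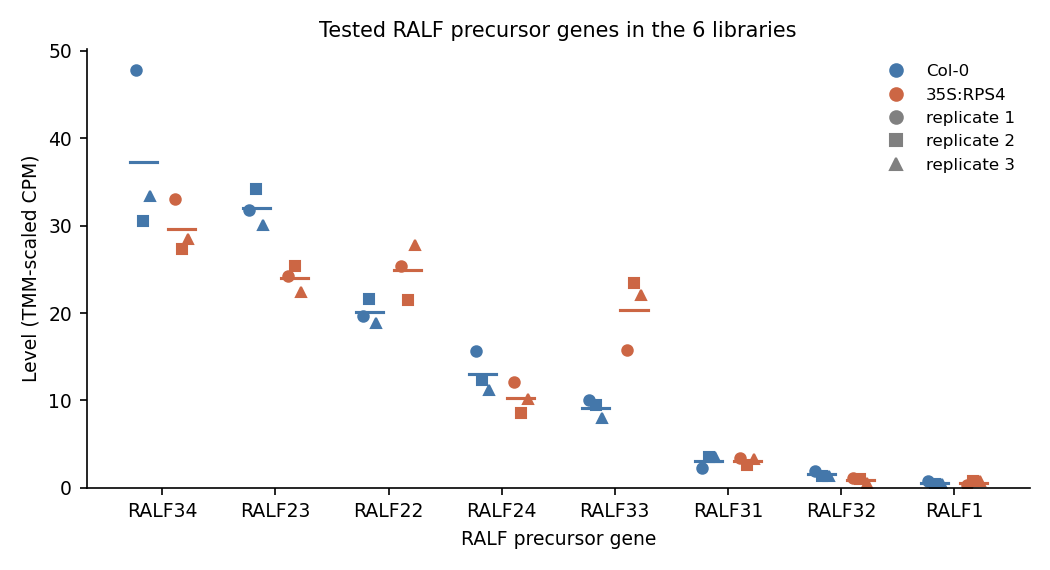
Level of the 8 tested RALF precursor genes in each library in TMM-scaled CPM, blue for Col-0 and red for 35S:RPS4, with marker shapes for replicates and a bar for the mean. RALF33 has a gap between the groups, from 7.97 to 10.1 CPM in Col-0 to 15.7 to 23.4 CPM in 35S:RPS4, and RALF23 lies lower in 35S:RPS4 by a smaller step.

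Among 16 other CrRLK1L kinases, the relatives of FER, 12 were tested, 1 was called higher and none lower, with a median log2FC of 0.27. LET2 alone was lower at an unadjusted p below 0.05 (log2FC -0.89, edgeR FDR 0.0113). The called gene was MDS3 (AT5G39020), linked to growth under metal ions, which went from 20.3 to 93.5 CPM (log2FC 2.20, SE 0.38, edgeR FDR 0.00762). It lies in a tandem group of similar genes, where reads that match several copies may be lost or split, so its value is uncertain. Its call was lost when any library other than Col-0 replicate 1 was left out and when genes were not filtered on low counts (FDR 0.0407). MDS1, the most abundant of the list at 87.3 CPM in Col-0, was at 120 CPM in 35S:RPS4 (log2FC 0.46, FDR 0.268). THE1, a cell wall integrity receptor, had a log2FC of 0.25, and HERK1 of -0.04.

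Of 14 listed partners of RALF peptides and FER, 8 were tested, 2 were higher and none lower, with a median of 0.00, and ROPGEF1 alone was lower at an unadjusted p below 0.05 (log2FC -0.29, edgeR FDR 0.152). LRX3, a leucine-rich repeat extensin that binds RALF peptides in the cell wall, was 2.15-fold higher (293 against 136 CPM, edgeR FDR 0.000726). RIPK, a cytoplasmic kinase that acts with FER, rose from 18.2 to 41.1 CPM (log2FC 1.18, FDR 0.00293). The call of RIPK was lost when any library other than 35S:RPS4 replicate 1 was left out (FDR 0.0116 to 0.0200), and that of LRX3 without 35S:RPS4 replicate 3, at a log2FC of 0.97. With upper-quartile scaling LRX3 fell under the fold threshold at 0.92 and RIPK at 0.99. SBT6.1, the protease that cuts RALF23, had a log2FC of -0.18 (FDR 0.238). AHA1, a proton pump of the plasma membrane, was at 457 and 448 CPM, and LLG3 had no read.

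In the phytosulfokine and PSY list, 10 of 12 genes were tested and none was called, with a median log2FC of 0.20. At an unadjusted p below 0.05 in edgeR, 3 were higher (PSK5, PSY1 and CNGC17) and 0 lower, and voom called 0. The second phytosulfokine receptor, PSKR2, was at 16.1 CPM in Col-0 and 15.5 in 35S:RPS4 (log2FC -0.05, edgeR FDR 0.827). CNGC17, a channel that acts with PSKR1 and the most abundant gene of the list, was at 17.9 and 24.0 CPM (log2FC 0.43, FDR 0.0434). The precursor gene PSK5, named after its values were seen, was at 1.09 and 2.74 CPM (log2FC 1.32, FDR 0.0388). With replicate number as a block, PSK5 passed (log2FC 1.35, FDR 0.00365), so the list then had 1 gene higher. PSK5 passed too with DESeq2 (FDR 0.00548) and without both libraries numbered 1 (FDR 0.00771). With 1 library left out at a time PSK5 never passed, at edgeR FDRs of 0.0222 to 0.140. Its Col-0 level rested on 19, 39 and 44 reads in replicates 1 to 3.

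The list of kinases related to RLK7 and of IDA-like peptides, relatives of the PIPs, had 8 of 10 genes tested, 3 higher and none lower, with a median of 0.49. The peptide precursor genes IDL7 and IDL6 were far higher in 35S:RPS4, with log2FC values of 7.23 (edgeR FDR 0.000352) and 6.74 (FDR 0.000762). These rest on 12 and 8 reads over the Col-0 group, none of them in replicate 1. Both genes passed the filter on low counts through 35S:RPS4 alone. Without Col-0 replicate 1 the values were 6.64 and 6.16, and without Col-0 replicate 2 IDL6 was at 7.56. Neither gene passed with voom (FDR 0.0117 for IDL7 and 0.0129 for IDL6). The receptor kinase gene HSL3 went from 5.51 to 82.8 CPM (log2FC 3.91, FDR 0.0012). CEPR2, the most abundant of the list, was at 111 and 116 CPM, and its log2FC of 0.06 turned to -0.10 with plain library sizes. IDA, which signals floral organ shedding, had no read in Col-0 and 17 reads in 35S:RPS4, at least 6.12-fold more. HAE, the IDA receptor, had a log2FC of 0.91 (FDR 0.00857) and HSL2 of -0.90 (FDR 0.00473), neither past the fold threshold.

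Of 8 genes for co-receptors and immediate signalling components that several peptide receptors share, all were tested, 5 were higher and none lower, with a median of 1.55. The MAP kinase MPK3 had a log2FC of 4.23, the NADPH oxidase RBOHD of 3.94 and the cytoplasmic kinase BIK1 of 3.29. The co-receptors SERK4 and BAK1 followed at 1.90 (edgeR FDR 0.00459) and 1.20 (FDR 0.00168). The other SERK genes, SERK1 at 0.02 and SERK2 at -0.22, and the MAP kinase MPK6 at 0.10 were not called. The count was 3 without 35S:RPS4 replicate 2 and likewise without Col-0 replicate 3, as BAK1 (FDR 0.0101 and 0.0122) and SERK4 (FDR 0.0218 and 0.0167) then missed the threshold. SERK4 also missed it without Col-0 replicate 2 (FDR 0.0185) and without 35S:RPS4 replicate 3 (FDR 0.0130).

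**Figure D4:**
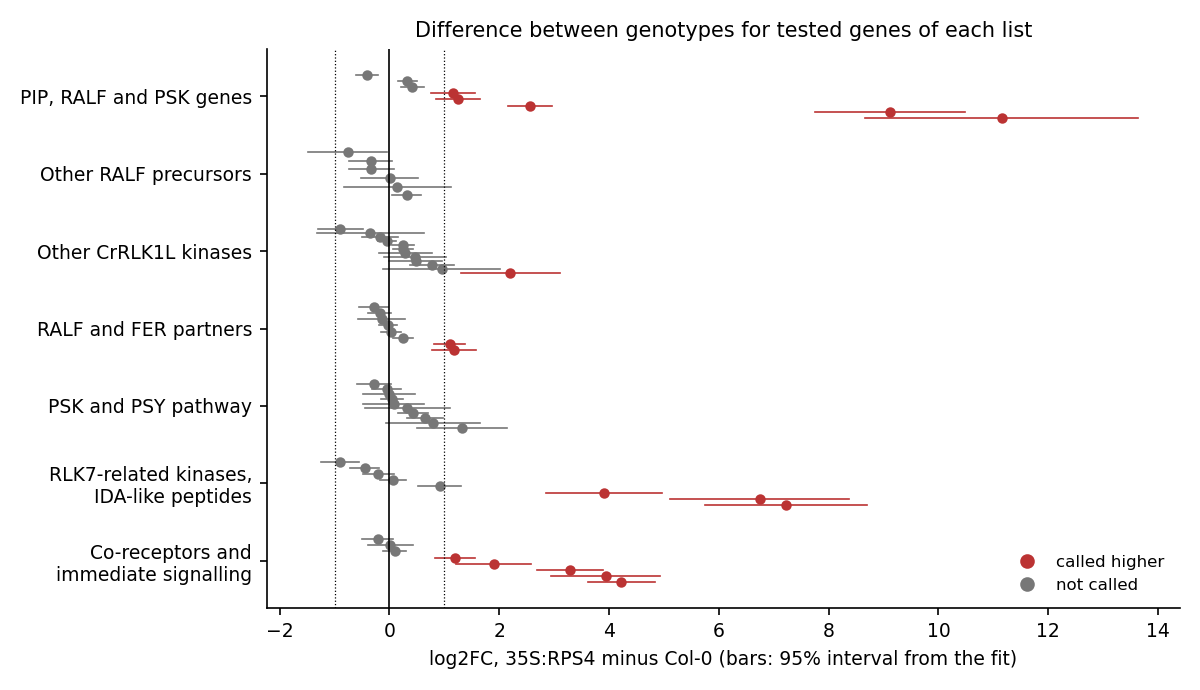
log2FC (35S:RPS4 minus Col-0) of each tested gene in the 7 lists, with bars for a 95% interval derived from the edgeR test. Red marks genes called higher and grey genes not called. Dotted lines mark a log2FC of 1 in either direction. In the top row RALF23, FER and LLG1 lie between the dotted lines. The points and bars of PREPIP2 and PREPIP3 are fitted values that depend on a prior count, since Col-0 held 2 and 0 reads.

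Over the 6 libraries, the tested gene nearest to each member was sought by Euclidean distance between centred log2 CPM values. It was WRKY46 for PREPIP2, at a distance of 0.599, and CRK39, a cysteine-rich receptor kinase, for PREPIP3 at 0.391. RLK7 lay nearest to VPS60.1 (0.143), RALF33 to the bHLH gene AT1G01260 (0.120) and PSKR1 to the lectin receptor kinase gene AT5G35370 (0.105). RALF23 lay nearest to COI1 (0.0386), FER to the kinase gene AT2G17530 (0.0555) and LLG1 to NPH4 (0.0734). The genotype difference enters every distance, so a gene with a similar log2FC lies near.

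The promoters of PREPIP2 and PREPIP3 are shown because these genes moved together, and those of RALF33 and RALF23 because they did not. Each is the 250 bases before the annotated start in RefSeq TAIR10.1, 5′ to 3′ on the gene's strand. The capitals mark TTGAC, the core of the W-box that WRKY factors bind, or its reverse complement GTCAA, and CGCG, a core that CAMTA factors bind. Their other core, CGTG, is not capitalised here.
PREPIP2, chr4:17550258-17550507, minus strand: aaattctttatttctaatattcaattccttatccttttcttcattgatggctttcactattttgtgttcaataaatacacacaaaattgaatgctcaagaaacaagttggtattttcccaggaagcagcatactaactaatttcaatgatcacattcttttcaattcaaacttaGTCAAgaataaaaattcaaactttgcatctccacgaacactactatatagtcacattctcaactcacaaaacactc
PREPIP3, chr2:9902965-9903214, plus strand: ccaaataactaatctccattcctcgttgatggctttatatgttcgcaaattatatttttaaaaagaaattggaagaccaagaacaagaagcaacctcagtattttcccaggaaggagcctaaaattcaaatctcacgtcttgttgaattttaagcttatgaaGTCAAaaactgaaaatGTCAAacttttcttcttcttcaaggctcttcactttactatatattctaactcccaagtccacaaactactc
RALF33, chr4:8984537-8984786, plus strand: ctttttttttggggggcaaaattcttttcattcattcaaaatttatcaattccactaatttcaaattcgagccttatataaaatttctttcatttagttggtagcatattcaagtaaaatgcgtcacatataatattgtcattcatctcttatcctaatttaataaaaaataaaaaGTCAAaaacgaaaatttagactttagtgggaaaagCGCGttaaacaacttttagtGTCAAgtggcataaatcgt
RALF23, chr3:5644343-5644592, plus strand: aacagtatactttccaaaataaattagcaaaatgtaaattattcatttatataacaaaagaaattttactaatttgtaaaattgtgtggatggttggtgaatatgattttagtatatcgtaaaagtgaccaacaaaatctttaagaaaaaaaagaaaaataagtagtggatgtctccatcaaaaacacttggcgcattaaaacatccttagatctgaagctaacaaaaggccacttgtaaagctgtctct
PREPIP2 held GTCAA at 76 bases before the start, and PREPIP3 at 88 and 72 bases. RALF33 held it at 74 and 19 bases before the start and CGCG at 39 bases, whereas RALF23 held neither.

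In windows from 250 bases before to 50 after the start, searched on both strands, TTGAC was present in 7 of the 9 genes, all but RALF23 and LLG1, against 50.5% of 27443 protein-coding promoters. CGCG was present in RALF33, FER and LLG1, against 13% of promoters, and CGTG in PREPIP1, PREPIP2, PREPIP3, LLG1 and PSKR1, against 52.7%. The G-box CACGTG was in none of the 9, against 7.68%, and the TGA core TGACG was in PREPIP1, RLK7, RALF33 and FER, against 23.1%. TGACG overlaps TTGAC wherever TTGACG occurs, as at 1 place in PREPIP1. RALF33 and FER held both TTGAC and CGCG, and of these RALF33 was called and FER was not. PREPIP2, PREPIP3, RLK7 and PSKR1 held TTGAC without CGCG, and all of these but RLK7 held CGTG. Whether any of these motifs bears on the calls was not tested.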

How the data were processed

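Polyadenylated leaf RNA was sequenced after Illumina TruSeq RNA v2 preparation, in 3 libraries of Col-0 and 3 of 35S:RPS4. The deposited values are raw read counts per gene. The authors' notes name TAIR10, FastQC 0.11.2, TopHat2 2.0.10 and HTSeq, and the counting's strand setting is not given in the sources used here. HTSeq summary entries, 6.45 to 8.30% of each library (5.08 to 6.97% for reads with several alignments), were set aside.

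All 18382 genes that passed the default filter on low counts were fitted together with edgeR 4.0.16 in R 4.3.3 (TMM scaling, robust quasi-likelihood test, genotype as the sole term), with the study's thresholds. Each SE is the size of the log2FC divided by the square root of the test's F statistic. The 95% intervals of log2FC apply a t quantile to that SE. The fit was tested on simulated data. CPM and RPKM are TMM-scaled, and promoters, coding stretches and lengths came from RefSeq TAIR10.1. Genes with 0 to 3 Col-0 reads were given as ratios with 95% counting intervals or against a floor of 3 reads over the group, which cover counting error only. Reads carry no molecular identifiers.

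The 9 genes and the lists of related genes were chosen with earlier results of these data known. Named from each list were the called genes, up to 6 by FDR, and the most abundant gene in Col-0. RALF22, RALF32, LET2, ROPGEF1, PSY1, THE1, HERK1, SBT6.1, LLG3, PSKR2, PSK5, IDA, HAE, HSL2, SERK1, SERK2 and MPK6 were named after their values were seen. Deviations from the group means correlated at r of 0.42, 0.12 and 0.28 where libraries shared the number 1, 2 or 3, and between -0.35 and 0.15 otherwise. The value for number 2 lay within the range of unlike numbers, so these correlations do not establish pairs. The numbers were taken as pairs only for the alternative with a replicate block. Chi-square between libraries of a group was 8.06 to 38.1 per gene, so none was a repeat of another. Alternatives were other scalings, no filter, DESeq2 1.42.0, limma 3.58.1 voom, the block, an FDR of 0.05 and leaving libraries out.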

Additional observations from a re-analysis of the deposited data

How the results depend on the processing

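Among the 9 genes, the count of 5 higher and none lower held with RLE factors, no filter, DESeq2, voom, the replicate block and without both libraries numbered 1. With upper-quartile factors or plain library sizes, which placed the median of all genes tested at -0.17 and -0.16, RALF33 fell to 0.97 and 0.99. With upper-quartile factors the CrRLK1L list then had 1 gene lower, the RALF and FER partners 0 higher, the RLK7-related list 1 lower and all genes 391 lower. With plain library sizes these were 1 lower, 1 higher, 1 lower and 377 lower, and LRX3 was at 0.93. CEPR2, not called, turned to -0.12 and -0.10 under these scalings. Without the filter the CrRLK1L list had 0 genes higher, and HSL3 (FDR 0.0106) and SERK4 (FDR 0.0206) missed the threshold. With DESeq2 the PSK and PSY list had 1 gene higher. With voom the RLK7-related list had 1 higher, as IDL7 (FDR 0.0117) and IDL6 (FDR 0.0129) missed the threshold. The replicate block gave 1 gene higher in the PSK and PSY list and changed no other call reported here, with 1329 genes higher and 330 lower in all. Without both libraries numbered 1, the CrRLK1L list had 1 lower, the PSK and PSY list 1 higher and all genes 404 lower. At an FDR below 0.05 with no fold minimum, 1 of the 9 genes was lower, the CrRLK1L list had 2 higher and 1 lower, the PSK and PSY list 3 higher, the RLK7-related list 2 lower, and all genes 1934 higher and 1150 lower. The cause of these shifts was not tested.

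Leaving out 1 library at a time gave 2 to 5 of the 9 genes higher, 841 to 1374 genes higher and 99 to 337 lower among all tested, 0 to 1 higher and 0 to 1 lower in the CrRLK1L list, 0 to 2 higher among the RALF and FER partners, 3 to 5 higher among the shared components and 3 to 4 in the RLK7-related list. The log2FC of CEPR2 then ran from -0.0096 to 0.14, below 0 when replicate 1 of Col-0 or replicate 2 of 35S:RPS4 was left out, and that of AHA1 from -0.0697 to 0.0047, above 0 without Col-0 replicate 2.

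With 3 libraries per group, the edgeR FDRs of FER, LLG1 and RALF23 sat near the threshold and moved with the scaling and with the library left out. With DESeq2 the FDRs were 0.00145, 0.00118 and 0.00217. These genes were still not called there, at log2FC values of 0.32, 0.41 and -0.42. No level before the move to 19 °C was analysed here, so a difference already present at 28 °C cannot be told apart from one that arose after it. Transcript levels say nothing of peptide release or receptor activity.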
